A study of Homo sapiens with 15 samples.

Results

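The BCL2-like and BAX-like apoptosis regulators are the multidomain members of the BCL2 family. They were taken here as 8 genes, chosen by symbol from the 60649 genes of the count table: the survival members BCL2, BCL2L1 (BCL-XL), BCL2L2 (BCL-W), BCL2A1 and MCL1, and the death-promoting members BAX, BAK1 and BOK. The cells were K562, a human leukaemia line established from chronic myeloid disease and driven by BCR-ABL. Untreated cultures were set against cultures given martinostat, a hydroxamate inhibitor of histone deacetylases (HDACs), for 24 h at 0.15, 0.25, 0.5 or 1 µM. Poly(A) RNA was sequenced from 3 biological replicates of each of the 5 groups, and no other allele or agent was named for any group. Library totals ran from 23755510 to 32805574 counts. Each group is a model of 1 line of BCR-ABL-positive leukaemia cells, so the spread between its replicates is that of cultures of this line.

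In mitochondrial apoptosis, BAX and BAK1 are the pore formers: once active, they open the outer mitochondrial membrane and cytochrome c leaves it. The survival members hold BAX and BAK1 in check by binding them and by binding the BH3-only proteins, short relatives that relay stress signals. BOK resembles BAX and BAK1 in sequence but is less bound by the survival members. In BCR-ABL leukaemia BCL2L1 is a textbook target of STAT5, and MCL1 is a short-lived protein whose mRNA and protein both turn over fast, so mRNA levels such as these are not protein levels.

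Unless named otherwise, values are CPM, counts relative to the library total, with TMM factors that scale the libraries to each other. A gene was called different where edgeR's quasi-likelihood test, fitted once to all 15 libraries, gave an adjusted p below 0.05 over 23711 tested genes. A large share of all genes was called different with martinostat. The median log2 change against untreated cells was not 0 but 0.28, 0.32, 0.34 and 0.32 at the 4 rising doses, and the cause of this offset was not tested. Scaling by library totals alone raised these medians by a further 0.35 to 0.53 on the log2 scale. It also moved the split of calls over all genes at 0.15 µM from 7557 higher and 4591 lower to 9582 higher and 2118 lower. Changes are therefore also given relative to the median of all genes, a quantity that differed little between these scalings.

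All 11 K562 markers fixed for the check, erythroid genes and the fusion partners among them, had counts in every group. So did all 4 monocyte genes, so that detection alone does not identify the line. The summed level of the K562 markers was 4578 to 4903 CPM in untreated cells and 1621 to 1758 CPM at 1 µM. Both ranges lay above the sums of the other marker lists given below. Markers of other cell types were low in untreated cells, at 3.55 to 5.15 CPM in sum for 5 T cell genes, 2.28 to 4.70 for 4 B cell genes and 7.30 to 9.27 for 4 monocyte genes, with CD2, MS4A1 and CD79B at 0. At 1 µM the same sums were 2.27 to 4.36, 11.1 to 12.4 and 24.9 to 32.7 CPM, and TRAC was at 0. The sum of 5 epithelial and fibroblast genes went from 152 to 171 CPM to 321 to 509 CPM, with COL3A1 at 0 in untreated cells. In bulk RNA, fewer cells of a type and less RNA per cell cannot be told apart, and the part of these shifts in the results was not tested.

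Replicate 3 at 0.25 µM and replicate 3 at 0.5 µM stood apart from all other libraries on principal component 3, with scores of 70.1 and 75.4. They also had the highest TMM factors, 1.28 and 1.22. Results that changed without them are given both ways.

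BCL2L1 and MCL1 carried the response of the family, in opposite directions and with a switch between 0.25 and 0.5 µM. BCL2L1 rose at the lower doses and fell 3.78-fold and 3.63-fold at 0.5 and 1 µM, while MCL1 fell slightly at 0.15 µM and rose 2.58-fold and 2.57-fold at the same higher doses. BOK rose at 0.15 µM, and BCL2L2, BCL2 and BAX showed smaller decreases at some doses. BAK1 was called at none, and BCL2A1 had 0 counts in 14 of the 15 libraries. The smaller decreases, and that of MCL1, depended on the scaling of libraries. The rise of BCL2L1 at 0.25 µM was lost in 6 of 17 alternative fits, and that of BOK at 0.15 µM in 2 of 17.

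BCL2L1, which encodes BCL-XL, lies on the minus strand of chromosome 20 at 31664452 to 31723989 (hg38). Its level in the 3 untreated libraries was 129, 129 and 137 CPM. At 0.15 µM it was 251, 232 and 279 CPM, and at 0.25 µM it was 195, 181 and 148 CPM. All 6 libraries of the lower doses lay above the untreated ones, and those at 0.15 µM lay above those at 0.25 µM. At 0.5 µM the values were 35.1, 39.7 and 29.9 CPM and at 1 µM 34.1, 35.5 and 39.0 CPM, far under every untreated library. Against untreated cells, 0.15 µM gave a log2 change of 0.95 (SE 0.14, adjusted p = 1.97e-05), and 0.25 µM one of 0.41 (SE 0.14, adjusted p = 0.0175). The log2 change for 0.5 µM was -1.92 (SE 0.15, adjusted p = 1.36e-09), and for 1 µM -1.86 (SE 0.15, adjusted p = 1.96e-09). The first and the last pair of doses thus lay on opposite sides of untreated cells. The direct comparison of 1 with 0.15 µM gave a 7.02-fold lower level (log2 -2.81, SE 0.15, adjusted p = 9.94e-11). The step from 0.15 to 0.25 µM was a decrease of 0.54 in log2 (adjusted p = 0.0180). That call was lost without replicate 3 at 0.15 µM (-0.43, adjusted p = 0.0715), without replicate 3 at 0.25 µM (-0.42, adjusted p = 0.0806) and in the fit to the 6 libraries compared (-0.49, adjusted p = 0.0872). It was also lost with the replicate block and the GC difference of the library together (-0.35, adjusted p = 0.0595). The step from 0.25 to 0.5 µM was 5.02-fold downwards (adjusted p = 2.52e-09).

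Relative to the median of all genes, the BCL2L1 changes were 0.67, 0.09, -2.26 and -2.18 at the 4 rising doses. The excess over other genes at 0.25 µM was therefore close to 0, and the increase called there was lost when any of untreated replicates 1 or 2 or 0.25 µM replicates 1 or 2 was left out (adjusted p from 0.0554 to 0.0901). Without the 2 libraries that stood apart, the change at 0.25 µM was 0.54 (adjusted p = 0.000442) and that at 0.5 µM was -1.78 (adjusted p = 1.45e-11).

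MCL1 lies on the minus strand of chromosome 1 at 150560895 to 150579738. Untreated libraries held 323, 340 and 346 CPM. At 0.15 µM the level was 263, 260 and 252 CPM, below all untreated libraries, and at 0.25 µM it was 311, 359 and 333 CPM, on both sides of them. At 0.5 µM it reached 805, 894 and 908 CPM and at 1 µM 893, 845 and 857 CPM. Every library of the 2 higher doses thus lay far above all libraries of the other groups. For 0.15 µM the log2 change was -0.38 (SE 0.13, adjusted p = 0.0196), and for 0.25 µM -0.01 (95% interval -0.28 to 0.26, adjusted p = 0.959). For 0.5 µM it was 1.37 (SE 0.13, adjusted p = 2.91e-08), and for 1 µM 1.36 (SE 0.13, adjusted p = 3.11e-08). The level at 1 µM was 3.35-fold that at 0.15 µM (log2 1.74, SE 0.13, adjusted p = 5.52e-09). The step from 0.25 to 0.5 µM was 2.60-fold upwards (adjusted p = 2.59e-07), whereas the step from 0.15 to 0.25 µM missed the threshold (log2 0.37, adjusted p = 0.0680). That step was called in 6 of 17 alternatives, among them DESeq2 (0.46, adjusted p = 4.28e-05), library totals (0.54, adjusted p = 0.0147) and the fit without the 2 libraries that stood apart (0.40, adjusted p = 0.0198).

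The 2 statements on MCL1 at the lower doses depended on scaling. With library totals, the change at 0.15 µM was -0.02 (adjusted p = 0.921) and that at 0.25 µM was 0.52 (adjusted p = 0.00243). Relative to the median of all genes, MCL1 stood at -0.66, -0.33, 1.03 and 1.05 at the 4 doses. The decrease at 0.15 µM was also lost without untreated replicate 2 (adjusted p = 0.0641), untreated replicate 3 (0.0699) or 0.15 µM replicate 2 (0.0548).

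**Figure D1:**
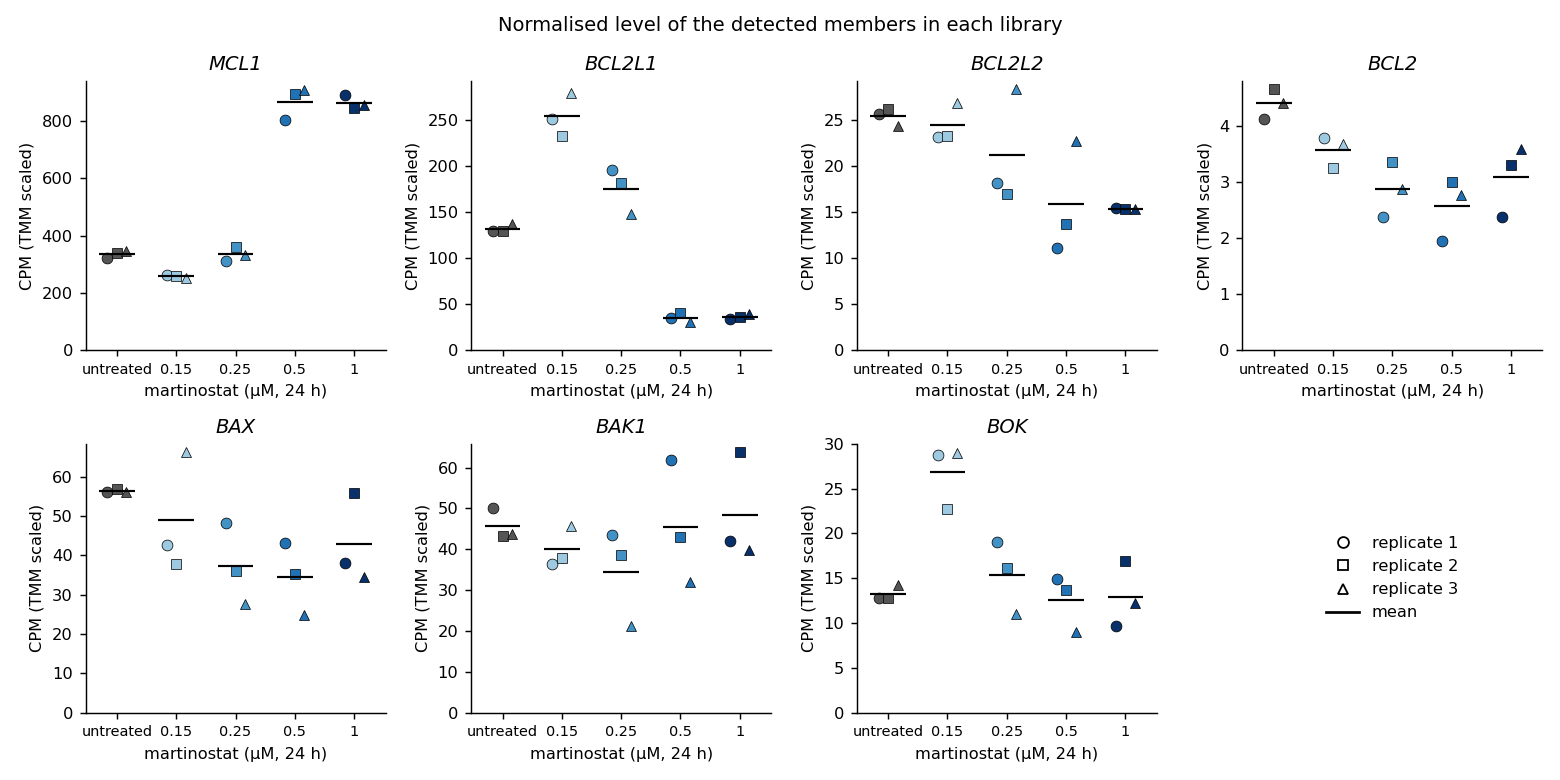
CPM of the 7 detected members (vertical axes, each from 0) in the 3 libraries of each group (horizontal axis, martinostat dose in µM); point shapes mark replicate numbers and bars the group means. MCL1 is high and BCL2L1 low in all 6 libraries at 0.5 and 1 µM, while BCL2L1 and BOK are highest at 0.15 µM.

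The pair was also compared within each library, by a ratio that no scaling of libraries can alter. On full exon lengths, its order differed from that of untreated cells at 0.15 µM only. Per kilobase of exon, the MCL1 level was 1.69, 1.78 and 1.71 times that of BCL2L1 in the untreated libraries. At 0.15 µM the ratio was 0.71, 0.75 and 0.61, so that BCL2L1 was the more abundant survival mRNA in all 3 libraries. At 0.25 µM it was 1.08, 1.34 and 1.52, still below every untreated library. At 0.5 µM it was 15.5, 15.2 and 20.5 and at 1 µM 17.7, 16.1 and 14.8. These are descriptions of 3 libraries a group with no test of the ratio.

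Of the summed level per kilobase of the 5 survival members, MCL1 made up 59.4% ± 0.56 (SD, n = 3) and BCL2L1 34.5% ± 0.63 in untreated cells. At 0.15 µM the shares were 38.8% ± 2.57 for MCL1 and 56.3% ± 2.42 for BCL2L1. At 1 µM MCL1 made up 92.0% ± 0.53 and BCL2L1 5.72% ± 0.47. The sum itself was 91.0 ± 2.60 CPM per kilobase in untreated cells, 107 ± 5.43 with 0.15 µM and 94.9 to 105 with 0.25 µM. It reached 151 ± 9.81 with 0.5 µM and 151 ± 3.73 with 1 µM. The survival mRNA pool at the 2 higher doses was thus larger than in any untreated library and consisted mostly of MCL1.

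**Figure D2:**
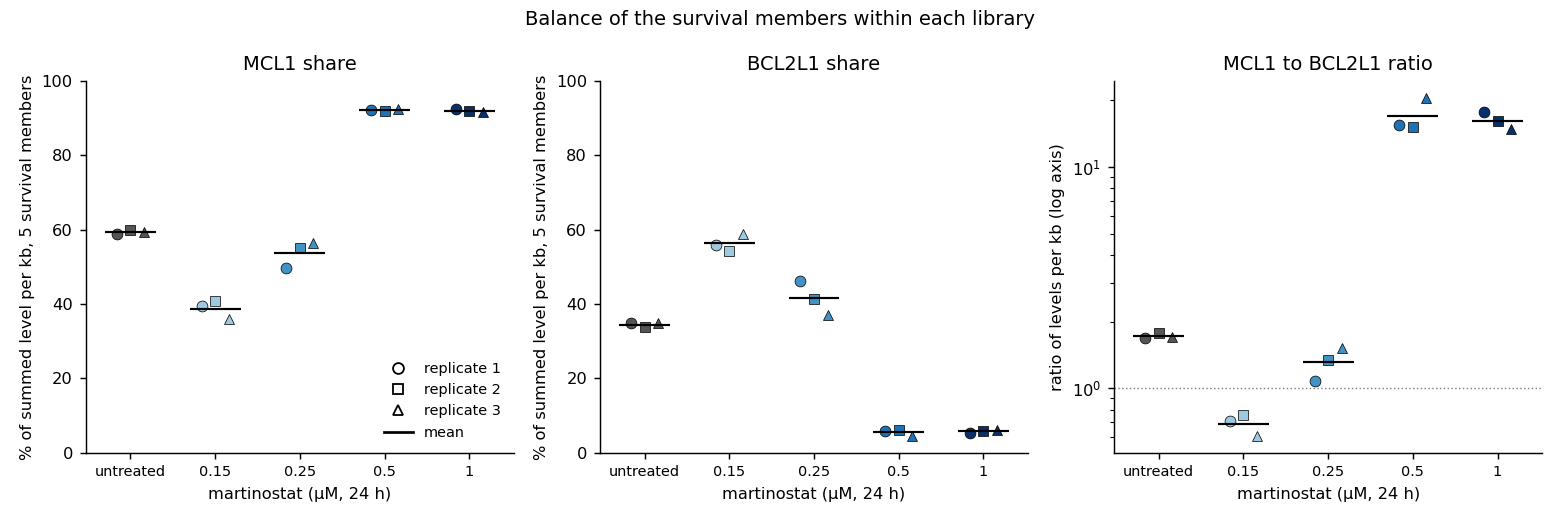
Shares of MCL1 and BCL2L1 in the summed level per kilobase of the 5 survival members (left and middle, percent) and the ratio of MCL1 to BCL2L1 (right, log axis, dotted line at 1) in each library by martinostat dose. The ratio lies between 0.61 and 0.75 at 0.15 µM and between 14.8 and 20.5 at the 2 higher doses.

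Exon overlap makes the level of BCL2L1 uncertain. Of its exon bases, 41.3% lie under the opposite-strand lncRNA ABALON, which itself held 39 counts over all 15 libraries, and the strand setting of the counting is not given in the sources used here. With the same counts divided by the exon length free of other genes, as would hold if no read in the shared bases was counted, BCL2L1 stood at 53.4 ± 1.79 CPM per kilobase in untreated cells and MCL1 at 57.1 ± 1.98. The ratio of the pair was then 1.05 to 1.10 in untreated libraries and 0.38 to 0.47 at 0.15 µM. With 0.25 µM it was 0.67 to 0.94, so the order of the pair at that dose turned with the length used. It was 9.42 to 12.7 with 0.5 µM and 9.19 to 10.9 with 1 µM. The antisense gene BCL2L1-AS1 held 146 counts in all, and the MCL1 exons share 5.3% of their bases with ADAMTSL4 (73742 counts) and ADAMTSL4-AS1 (350 counts). Gene counts do not separate the long and short isoforms of BCL2L1 or of MCL1, which are known to act in opposite directions.

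The genes that most resembled each member over the 15 libraries were ranked by Pearson correlation of log2 CPM, among 10122 genes that averaged 10 CPM or more. For MCL1 these were ALAS1 (r = 0.994), ZKSCAN5 (0.991) and VASN (0.989). ALAS1, the first enzyme of haem synthesis outside red cells, went from 58.0 ± 3.32 CPM in untreated cells to 38.1 ± 3.01 at 0.15 µM and 302 ± 32.2 at 1 µM. For BCL2L1 they were ITGB5 (0.993), GRAP2 (0.989) and SLC37A1 (0.989). GRAP2, a signalling adaptor, went from 29.3 CPM in untreated cells to 70.8 at 0.15 µM and 3.20 at 1 µM. The points are libraries of 5 doses of the same compound, so these values describe likeness only. Among all tested genes, 339 (1.43%) were called higher at 0.15 µM, lower at 1 µM and lower at 1 than at 0.15 µM as BCL2L1 was, and 127 (0.536%) had the reverse course of MCL1.

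BOK, the BAX relative whose role in pore formation is least settled, lies on the plus strand of chromosome 2 at 241551424 to 241574131. Untreated libraries held 12.8, 12.7 and 14.2 CPM and those at 0.15 µM 28.7, 22.7 and 29.0 CPM, with no overlap. The 3 libraries of 0.25 µM held 19.1, 16.2 and 11.0 CPM, those of 0.5 µM 14.9, 13.7 and 9.05 CPM, and those of 1 µM 9.69, 16.9 and 12.2 CPM. Each of these groups lay on both sides of the untreated level. BOK therefore rose at 0.15 µM, and in this fit no change against untreated cells was called above that dose. At 0.25 µM, where it was 0.21 (adjusted p = 0.437), library totals gave 0.72 (adjusted p = 0.00590) and TMM factors from the more abundant genes 0.63 (adjusted p = 0.0179), both called higher. The log2 change at 0.15 µM was 1.02 (SE 0.23, adjusted p = 0.00126), or 0.73 relative to the median of all genes. The level at 1 µM was 2.07-fold lower than at 0.15 µM (log2 -1.05, SE 0.23, adjusted p = 0.00113), and the step from 0.15 to 0.25 µM was a decrease of 0.80 (adjusted p = 0.0294). Without replicate 3 at 0.25 µM that step was -0.59 (adjusted p = 0.138), and it was also lost without replicates 1 or 3 at 0.15 µM or replicate 2 at 0.25 µM. Without both libraries that stood apart it was -0.59 (adjusted p = 0.0408). The antisense gene BOK-AS1 covers 7.5% of the BOK exon bases and held 94 counts in all.

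BCL2L1 and BOK were the 2 members higher at 0.15 µM, and a stretch of promoter sequence of each is shown to compare their base composition. Each is the part of a RefSeq promoter window (GRCh38.p14) that ends before the annotated exon in that window, 5′ to 3′ on the strand of the gene, with GC boxes (GGGCGG or its reverse complement) in capitals. The first is chr20:31723990-31724213 on the minus strand, the second chr2:241558495-241558744 on the plus strand. The BOK stretch lies inside the annotated gene, since another of its transcripts starts further upstream, at 241551424.
BCL2L1: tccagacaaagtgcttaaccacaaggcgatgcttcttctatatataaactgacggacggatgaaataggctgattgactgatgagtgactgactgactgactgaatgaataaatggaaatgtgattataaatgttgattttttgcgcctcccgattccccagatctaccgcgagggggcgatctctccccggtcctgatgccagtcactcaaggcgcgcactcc
BOK: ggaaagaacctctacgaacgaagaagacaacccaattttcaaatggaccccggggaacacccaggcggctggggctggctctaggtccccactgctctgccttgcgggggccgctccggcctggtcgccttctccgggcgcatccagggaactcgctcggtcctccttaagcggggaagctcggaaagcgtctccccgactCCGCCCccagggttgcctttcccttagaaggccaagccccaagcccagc
The BCL2L1 stretch is 47.8% G or C and the BOK stretch 64.4%. Windows of 300 bases were given for 6 members, with 2 for BCL2L1, and not for MCL1 or BCL2L2. The upstream window of BCL2L1 is 52% G or C, its downstream window 61.3% and the BOK window 66.7%. The contrast in base composition between the 2 genes thus depends on the window shown. Both strands were searched for GC boxes, which 45% of all 35116 promoter windows hold, for the STAT element TTCNNNGAA, held by 7.66%, and for the GATA element GATAAG, held by 6.36%. GC boxes were found in the windows of BOK (1), BAK1 (2), BAX (2) and the downstream window of BCL2L1 (1). A STAT element stood in the window of BCL2A1 and a GATA element in that of BAX. Neither was in the BCL2L1 or BOK windows, which says only that these letters are not in these stretches.

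BCL2L2, which encodes BCL-W, lies on the plus strand of chromosome 14 at 23298790 to 23311751. Its untreated libraries held 25.6, 26.1 and 24.3 CPM and those at 0.15 µM 23.1, 23.3 and 26.8 CPM. At 0.25 µM the values were 18.1, 16.9 and 28.3 CPM and at 0.5 µM 11.1, 13.7 and 22.6 CPM, with replicate 3 the highest at each. At 1 µM the 3 libraries held 15.4, 15.3 and 15.3 CPM. For 0.5 µM the log2 change was -0.68 (SE 0.22, adjusted p = 0.0120), and for 1 µM -0.73 (SE 0.22, adjusted p = 0.00762). In this fit BCL2L2 thus fell at both higher doses, and relative to the median of all genes the changes there were -1.02 and -1.04. With library totals neither was called, at -0.24 (adjusted p = 0.471) for 0.5 µM and -0.37 (adjusted p = 0.268) for 1 µM. Without the 2 libraries that stood apart, the change was -0.51 (adjusted p = 0.00412) at 0.25 µM, where it had been -0.26 (adjusted p = 0.314), and -0.99 (adjusted p = 3.09e-06) at 0.5 µM. Without replicate 1 at 0.5 µM the change at that dose was -0.48 (adjusted p = 0.0663). Other genes share 24.8% of its exon bases, among them PPP1R3E (6793 counts), HOMEZ and the readthrough gene BCL2L2-PABPN1 (54 counts), so its level is uncertain.

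BCL2, the founding survival member and the target of venetoclax, was scarce in these cells. It lies on the minus strand of chromosome 18 at 63123346 to 63320128 and had 44 to 121 counts a library. Untreated libraries held 4.13 to 4.67 CPM and those at 0.5 µM 1.94 to 3.01 CPM, without overlap. BCL2 fell by 0.62 in log2 (SE 0.25, adjusted p = 0.0367) at 0.25 µM. The decrease at 0.5 µM was also called (log2 -0.77, SE 0.25, adjusted p = 0.0110), and the value of -0.51 (SE 0.25, adjusted p = 0.0771) for 1 µM missed the threshold. The call at 0.25 µM was lost without untreated replicates 2 or 3 or 0.25 µM replicates 1 or 3 (adjusted p from 0.0717 to 0.132), and that at 0.5 µM without replicate 1 of that dose (0.0561). Both were lost with library totals, at -0.09 (adjusted p = 0.782) for 0.25 µM and -0.38 (adjusted p = 0.227) for 0.5 µM.

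BCL2A1, on chromosome 15 at 79960892 to 79971196, is a survival member best known from activated leukocytes. It had 0 counts in 14 libraries and 2 counts in replicate 2 at 0.25 µM. A count of 0 allows up to 3 counts a library, or 0.0750 to 0.132 CPM, for counting error only. It was not tested, and its induction by martinostat was not detectable at this depth.

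BAX, a pore former and a classical target of p53, which K562 cells lack, lies on the plus strand of chromosome 19 at 48954815 to 48961798. Its untreated libraries held 56.0, 56.7 and 56.0 CPM. The libraries of 0.15 µM held 42.7, 37.8 and 66.3 CPM, those of 0.25 µM 48.2, 36.0 and 27.6 CPM, those of 0.5 µM 43.1, 35.3 and 24.8 CPM, and those of 1 µM 38, 55.9 and 34.6 CPM. All libraries at 0.25, 0.5 and 1 µM lay below the untreated ones, but treated replicates differed far more among themselves than untreated ones did. BAX fell by 0.59 in log2 (SE 0.25, adjusted p = 0.0472) at 0.25 µM and by 0.71 (SE 0.25, adjusted p = 0.0187) at 0.5 µM. The value for 1 µM was -0.39 (SE 0.25, adjusted p = 0.175). The decrease at 0.25 µM was lost when any untreated library or 0.25 µM replicates 2 or 3 were left out (adjusted p from 0.0847 to 0.221). Without the 2 libraries that stood apart it was -0.39 (adjusted p = 0.192) at 0.25 µM and -0.48 (adjusted p = 0.112) at 0.5 µM. Leaving out replicate 3 at 0.5 µM alone gave -0.52 (adjusted p = 0.0805) at that dose, and leaving out replicate 2 at 1 µM gave a called decrease of 0.63 (adjusted p = 0.0483) there. Library totals gave -0.09 (adjusted p = 0.743) at 0.25 µM and -0.36 (adjusted p = 0.141) at 0.5 µM, neither called.

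BAK1, the other pore former, lies on the minus strand of chromosome 6 at 33572547 to 33580293. Group means were 45.7 ± 3.85, 40.0 ± 4.92, 34.4 ± 11.8, 45.6 ± 15.1 and 48.5 ± 13.2 CPM (SD, n = 3) from untreated cells to 1 µM. Libraries of every treated group lay on both sides of, or overlapped, the untreated range of 43.3 to 50.1 CPM. The log2 change ran from -0.41 (95% interval -0.96 to 0.14) at 0.25 µM to 0.09 (-0.46 to 0.64) at 1 µM, and none was called. Its pseudogenes BAK1P1 and BAK1P2 held 392 and 2 counts in all and GGNBP1, which shares 4.1% of its exon bases, 207 counts.

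**Figure D3:**
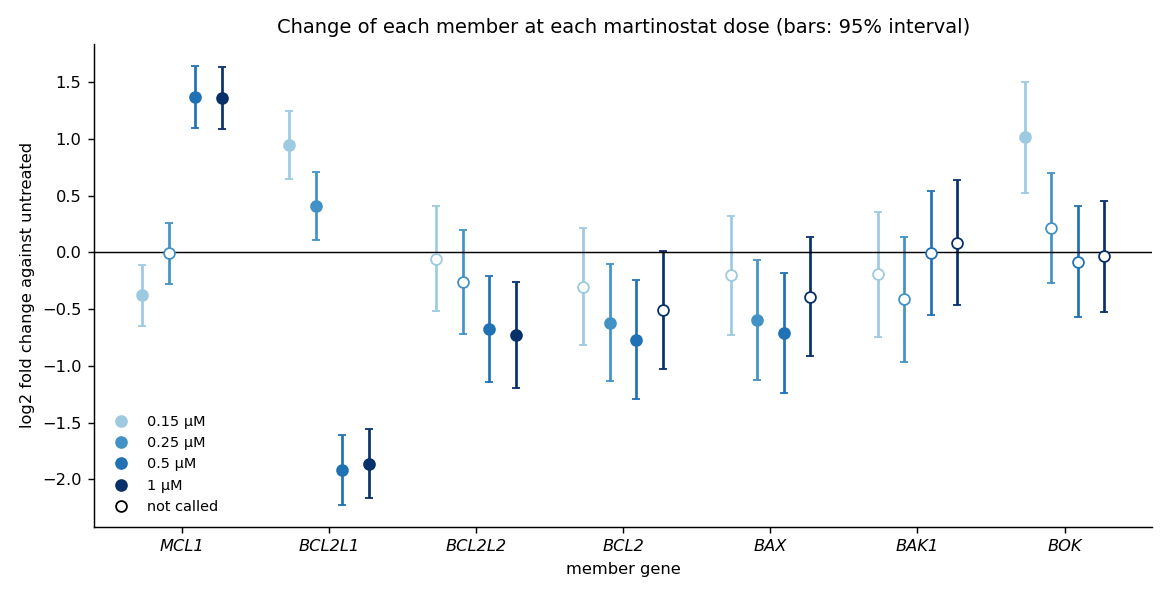
Log2 fold change of each tested member against untreated cells (vertical axis) at the 4 martinostat doses, with 95% intervals from the edgeR fit over 15 libraries; open circles were not called. BCL2L1 changes sides between 0.25 and 0.5 µM, MCL1 moves there from near 0 to well above it, and the intervals of BAK1 include 0 at every dose.

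The spread of BAX, BAK1 and BOK within groups was shared. In each treated group the same replicate was highest for all 3 genes: replicate 3 at 0.15 µM, replicate 1 at 0.25 and 0.5 µM and replicate 2 at 1 µM. Over the 15 libraries, the deviations of BAX from its group means had a correlation of 0.88 with those of BAK1 and 0.84 with those of BOK. The longest transcripts of these genes are rich in G and C, at 58.9% for BAX, 58.8% for BAK1 and 66.0% for BOK. GC-rich genes as a whole, the top quintile of genes against the bottom one, deviated in the same libraries, with a correlation of 0.91 with BAX, 0.85 with BAK1, 0.81 with BOK and 0.83 with BCL2L1 (58.2% GC). It was -0.64 for BCL2L2 (52.3% GC) and -0.51 for MCL1 (44.7% GC). The libraries share scaling and cell line, and these are descriptions with no test.

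**Figure D4:**
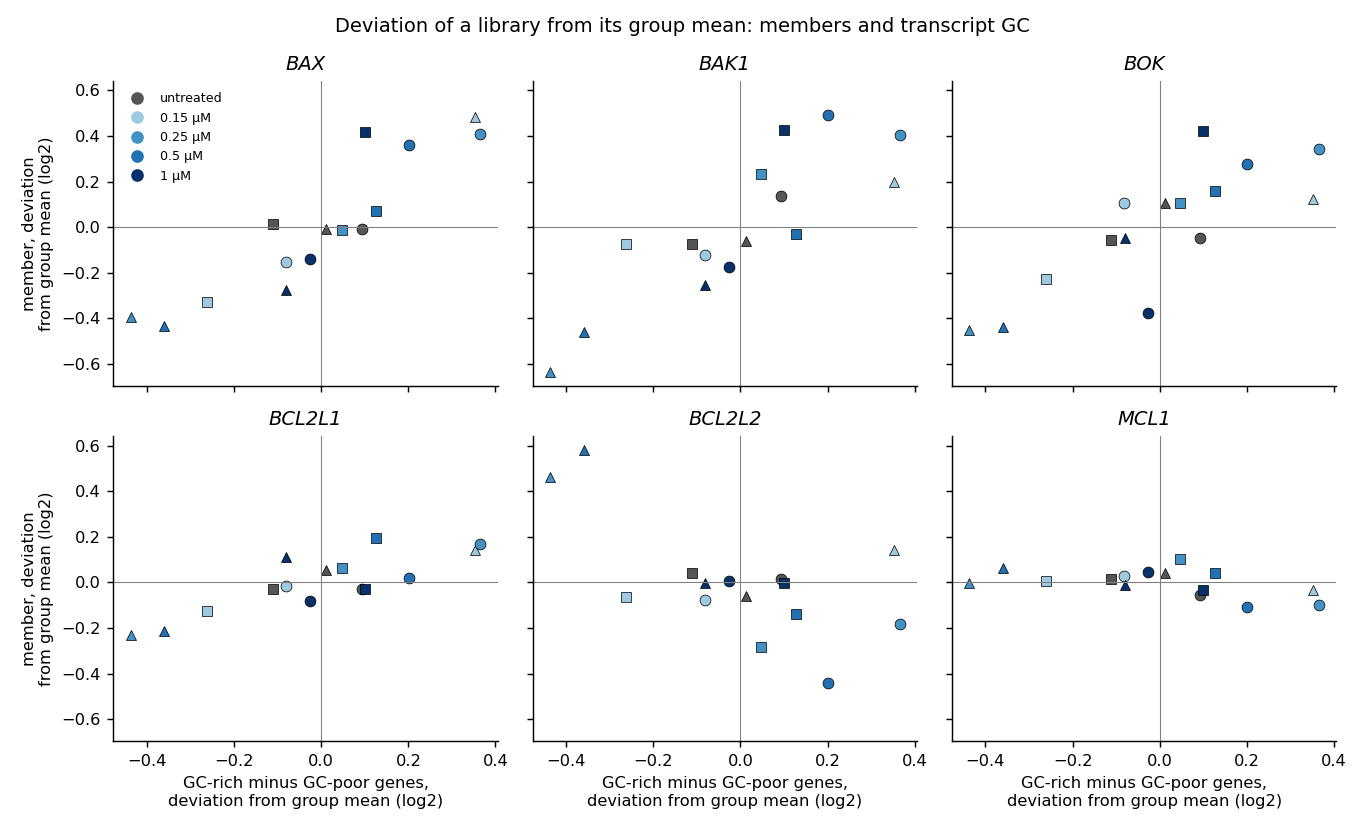
Deviation of each library from its group mean in log2, for 6 members (vertical axes) against the difference between the top and bottom quintile of genes by transcript GC content (horizontal axes); colours mark doses and shapes replicate numbers as in the plot of CPM by library. BAX, BAK1 and BOK fall on a rising band, while MCL1 stays between -0.11 and 0.10 in every library.

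The difference between GC-rich and GC-poor genes also differed between groups. It ran from -0.37 to -0.22 in untreated libraries and from 0.21 to 0.80 at 0.15 µM. For 0.25 µM the range was -0.35 to 0.46, for 0.5 µM -0.05 to 0.58, and for 1 µM 0.43 to 0.63. A fit with this value of each library as a covariate, added after seeing the data, kept the calls of BCL2L1 at 0.15 µM (log2 0.61, adjusted p = 0.00199), 0.5 µM (-2.20) and 1 µM (-2.22). It also kept those of MCL1 at 0.5 µM (1.45) and 1 µM (1.47). It lost those of BCL2L1 at 0.25 µM (0.24, adjusted p = 0.0773), MCL1 at 0.15 µM (-0.28, adjusted p = 0.152) and BCL2 at 0.25 µM (-0.55, adjusted p = 0.0768) and 0.5 µM (-0.65, adjusted p = 0.0777). BOK at 0.15 µM was then 0.30 (adjusted p = 0.260) and no longer called. BAX was called lower at all 4 doses, from -1.05 at 0.25 µM to -1.48 at 0.5 µM, and BAK1 likewise, from -0.77 at 0.5 µM to -1.07 at 0.15 µM. BCL2L2 was -0.29 (adjusted p = 0.239) at 0.5 µM and -0.17 (adjusted p = 0.569) at 1 µM, neither called, and BOK was called lower at 0.5 µM (-0.70) and 1 µM (-0.81). Treatment and GC difference were partly aligned, so their parts in the changes of BAX, BAK1, BOK and BCL2L2 cannot be told apart.

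Counted over the family, 7 of the 8 members were tested. For 0.15 µM, 2 were called higher and 1 lower, where 51.2% of all genes were called, 31.9% higher and 19.4% lower. For 0.25 µM, 1 was higher and 2 lower, with 62.3% of all genes called (37.4% and 24.8%). For 0.5 µM, 1 was higher and 4 lower, with 66.9% called (39.4% and 27.6%), and for 1 µM 1 was higher and 2 lower, with 66.2% called (38.8% and 27.5%). Measured against these shares of all genes, the family was called no more often than genes at large at 0.15, 0.25 and 1 µM, and about as often at 0.5 µM. With library totals the counts were 2 higher and 0 lower, 3 and 0, 1 and 1, and 1 and 1 at the 4 rising doses. Over all genes, that scaling called 11700, 14764, 15810 and 15585 at these doses. Of those, 81.9%, 79.2%, 70.2% and 69.3% were higher, so the tilt of the member counts at the lower doses was shared with genes at large. From 0.15 to 0.25 µM, 0 were higher and 2 lower, where 12.3% of all genes were called, 4.96% higher and 7.32% lower. From 0.25 to 0.5 µM, 1 was higher and 1 lower, with 30.4% called (14.4% and 16%). From 0.15 to 1 µM, 1 was higher and 3 lower, with 44.5% called (21.5% and 23.1%). The 3 that were lower at 1 than at 0.15 µM were BCL2L1, BOK and BCL2L2 (log2 -0.67, adjusted p = 0.0196).

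From 0.25 to 0.5 µM, libraries of equal number deviated together, and a fit to these 6 libraries with the replicate number as a block called 4 members rather than 2. BCL2L2 was then lower (log2 -0.45, adjusted p = 0.0114) and BAK1 higher (0.41, adjusted p = 0.00875) at 0.5 than at 0.25 µM, beside BCL2L1 (-2.34) and MCL1 (1.37). The share of all genes called by this blocked fit is not given here. The count of 4 is therefore not a result about the members.

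From 0.5 to 1 µM no member and no gene was called by edgeR (0% of 23711 genes, 0 higher and 0 lower, with 372 genes at an unadjusted p under 0.05). DESeq2 called 0 genes as well. The interval of the difference was -0.24 to 0.36 for BCL2L1 and -0.28 to 0.26 for MCL1, so changes within these bounds could not be seen. A test over all 5 groups called BCL2L1 (adjusted p = 5.46e-12), MCL1 (2.78e-10), BOK (0.000750) and BCL2L2 (0.0139), where 73.6% of all genes were called. BCL2 (0.0619), BAX (0.0856) and BAK1 (0.408) were not called by it.

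Compared with each other per kilobase of exon, the members of untreated cells stood in the order MCL1 (54.1 ± 1.87 CPM per kilobase, SD, n = 3), BCL2L1 (31.4 ± 1.05), BAX (21.7 ± 0.17), BAK1 (20.7 ± 1.74), BCL2L2 (5.24 ± 0.19), BOK (4.95 ± 0.32) and BCL2 (0.35 ± 0.02). The libraries of BAX and BAK1 overlapped, as did those of BCL2L2 and BOK. At 0.15 µM BCL2L1 came first with 60.6 ± 5.67, before MCL1 with 41.6 ± 0.90, and BOK with 10.0 ± 1.32 had passed BCL2L2 with 5.04 ± 0.44. At 1 µM the order was MCL1 (139 ± 4.04), BAK1 (21.9 ± 5.97), BAX (16.6 ± 4.43), BCL2L1 (8.63 ± 0.60), BOK (4.83 ± 1.37), BCL2L2 (3.16 ± 0.01) and BCL2 (0.25 ± 0.05), with BAK1 and BAX overlapping. On these exon lengths, BCL2L1 stood above both pore formers in all untreated libraries and below both in all libraries of the 2 higher doses. For BAX the exon length is 2587 bases but the longest transcript has 1358. These lengths are 4197 and 3257 for BCL2L1, and both are 2212 for BAK1. The place of BAX in the untreated order thus also rests on the length chosen. The order against BAX depended on the exon length used: divided by the length free of other genes, BCL2L1 was above BAX in replicates 2 and 3 at 0.5 µM (16.1 against 13.6 and 12.1 against 9.60) and in replicate 3 at 1 µM (15.8 against 13.4).

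The summed survival members stood at 1.93 ± 0.11 times the summed BAX, BAK1 and BOK level per kilobase in untreated cells, and at 2.33 ± 0.30, 2.97 ± 0.86, 4.22 ± 1.49 and 3.65 ± 0.91 times at the 4 rising doses. The libraries at 0.15 µM (1.98 to 2.54) overlapped the untreated ones (1.80 to 2.00). Replicate 3, the library that stood apart, was the highest at 0.25 µM (3.91, beside 2.21 and 2.80) and at 0.5 µM (5.77, beside 2.79 and 4.09). BOK made up 9.73% to 11.4% of the death-promoting sum in untreated libraries and 19.0% to 24.5% at 0.15 µM. The ratio of BAX to BAK1 was 0.95 to 1.12 in untreated libraries, 0.59 to 0.70 at 0.5 µM and 0.74 to 0.77 at 1 µM, without overlap with untreated cells at either. None of these ratios was tested, and their size within a group depends on the exon lengths used.

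The BH3-only genes, which encode the upstream ligands of the family, were split at 1 µM: 4 of 8 were called higher and 3 lower, against 66.2% of all genes called in either direction. BMF, whose protein is held on the cytoskeleton in healthy cells, rose from 2.80 CPM in untreated cells to 15.9 ± 1.74 at 0.15 µM and 80.7 ± 3.26 at 1 µM (log2 4.85, SE 0.18, adjusted p = 9.25e-14). BIK, a BH3-only protein of the endoplasmic reticulum, had 1 count in the 3 untreated libraries together and 503 counts at 1 µM. That is a 445-fold ratio with an exact counting interval of 79.4 to 17594. At the lower 3 doses BIK had 78, 173 and 453 counts. HRK was also higher (log2 1.13, adjusted p = 0.0247), at 1.5 CPM.

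On the other side, BID, which links death receptors to the mitochondria, fell from 106 CPM to 44.1 at 0.15 µM and 10.6 at 1 µM (log2 -3.31, SE 0.25, adjusted p = 1.82e-09). PMAIP1 (NOXA), the BH3-only partner most selective for MCL1, was at 44.1 CPM in untreated cells and 49.2 at 0.15 µM (adjusted p = 0.440), and fell to 21.9 at 1 µM (log2 -1.01, adjusted p = 2.44e-05). BCL2L11 (BIM), which binds all survival members, fell by 0.50 (adjusted p = 0.0109). The median log2 change of the 8 genes at 1 µM was 0.95, against 0.32 for all genes.

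Among 9 genes that govern the turnover of MCL1 protein, 2 were higher and 4 lower at 1 µM, where 66.2% of all genes were called (38.8% higher and 27.5% lower). USP9X, a deubiquitinase that stabilises MCL1, was at 242 CPM in untreated cells, 214 at 0.15 µM and 644 at 1 µM (log2 1.41, adjusted p = 4.80e-07). TRIM17, a ubiquitin ligase for MCL1, rose from 0.93 to 4.50 CPM (2.28, adjusted p = 1.58e-06). USP13, another deubiquitinase reported to act on MCL1, fell from 13.3 to 2.22 CPM (-2.58, adjusted p = 7.01e-08), and GSK3A (-1.17) and BTRC (-0.48) fell as well. The median log2 change of this list was -0.06.

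Of 10 execution genes downstream of the pore, 4 were higher and 5 lower at 1 µM, beside 66.2% of all genes called, with a median of -0.36. CYCS, which encodes cytochrome c, fell from 705 to 226 CPM (log2 -1.64, adjusted p = 4.00e-09), ENDOG fell by 1.33 (adjusted p = 0.0248) and AIFM1 by 0.83 (adjusted p = 8.68e-05). APAF1, the scaffold of the apoptosome, rose from 16.9 to 56.5 CPM (1.74, adjusted p = 1.03e-07), CASP9 by 1.32 (adjusted p = 2.15e-07) and DIABLO from 2.81 to 6.50 CPM (adjusted p = 0.00169). The mRNA of cytochrome c thus fell while those of APAF1 and CASP9, which assemble with it, rose. Exons of DIABLO and ENDOG lie under other genes for 32.3% and 40.1% of their bases, so their values are uncertain.

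Of 10 genes of the outer membrane channels and the contact with the endoplasmic reticulum, where BCL2-like proteins also act, 3 were higher and 4 lower at 1 µM, near the 66.2% of all genes called, with a median of -0.32. The 3 VDAC channels all fell, VDAC1 from 592 to 98.7 CPM (log2 -2.59, adjusted p = 7.26e-11), VDAC2 by 1.31 and VDAC3 by 0.98. ITPR2, a calcium release channel, rose from 54.9 to 446 CPM (3.02, adjusted p = 5.58e-12), BNIP3L by 1.07 and ITPR1 by 0.88. Of 5 further homologues of BCL2, 4 were tested, and 2 of these were called higher and 1 lower, beside the same 66.2%, with a median of 0.78. BCL2L13 fell by 0.80 (adjusted p = 1.81e-05), while the 2 that were higher, BCL2L14 and BCL2L15, stayed under 1 CPM and are named here because they were so few.

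**Figure D5:**
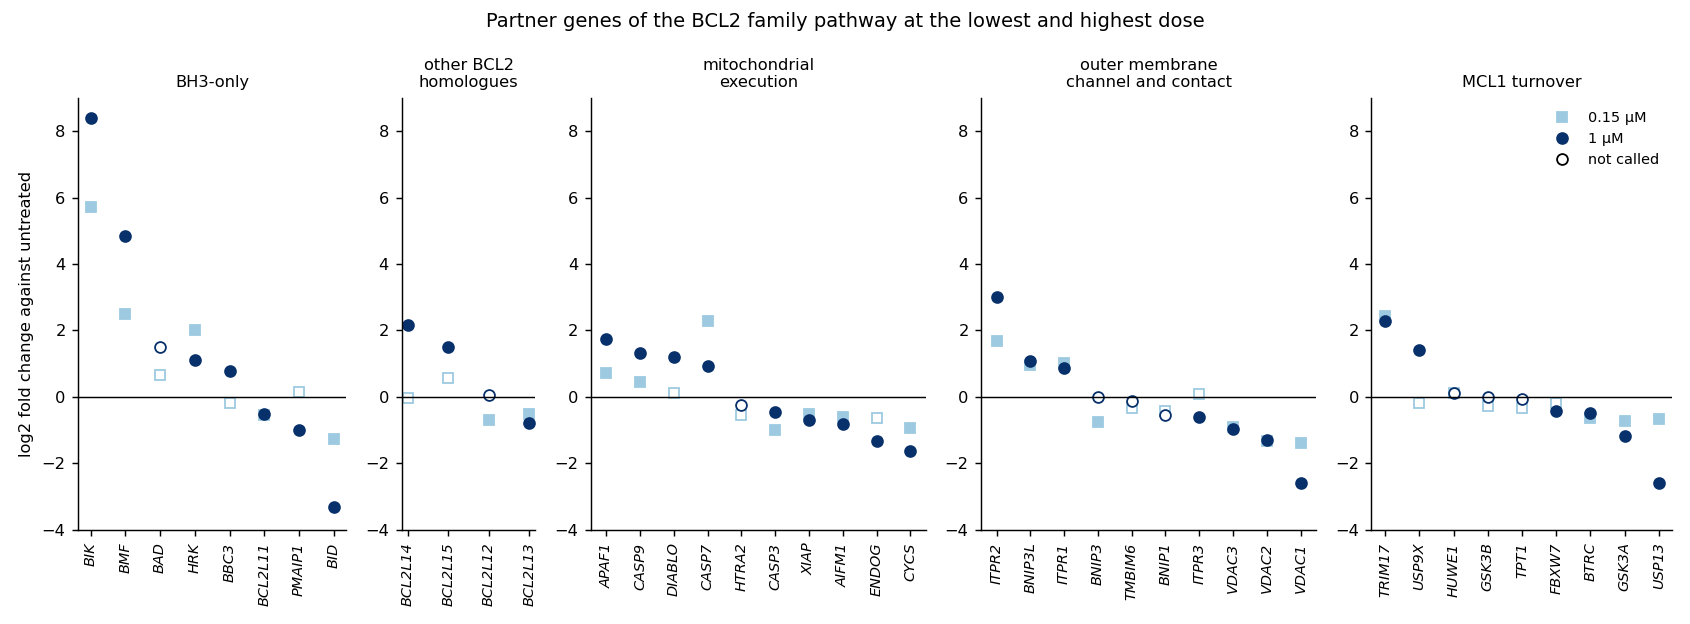
Log2 fold change against untreated cells at 0.15 µM (squares) and 1 µM (circles) for the tested genes of 5 lists around the family, ordered by their value at 1 µM; open symbols were not called. BIK and BMF stand highest and BID lowest among the BH3-only genes, and all 3 VDAC genes lie below 0 at both doses.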

How the data were processed

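The authors made paired-end libraries from poly(A) RNA of K562 cells, trimmed the reads, aligned them to hg38 with HISAT2 2.2.1 and counted them per GENCODE gene with featureCounts 1.5.3. The deposited table holds raw counts of 60649 genes in 15 libraries, not normalised; the deposited FPKM files were not used. Symbols were found for 99.8% of identifiers. Positions, exon lengths, overlaps and transcript GC came from GENCODE 44 on hg38. Groups and replicate numbers came from the sample labels.

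Counts were filtered with filterByExpr, scaled by TMM and tested with edgeR 4.0.16 (robust quasi-likelihood F test, R 4.3.3) in 1 fit of 15 libraries, with Benjamini-Hochberg adjustment over 23711 genes. The p-values rest on the spread between labelled biological replicates, pooled over the 5 groups and moderated across genes, not on the spread of 1 group alone. The fit was tested on simulated data. Lists were described by counts and medians, with the 3 highest and 3 lowest called genes above 1 CPM named. The members and lists were chosen with earlier results of these data known. Libraries of a group differed by more than sampling noise (chi-square per degree of freedom at least 6.49). Deviations of libraries with the same number correlated at 0.685, 0.699 and 0.866 between 0.25 and 0.5 µM, and not for all 3 numbers in any other pair of groups. Alternatives were DESeq2 1.42.0, other scalings and filters, the 6 libraries compared, a replicate block, and each library left out. A GC covariate and a paired fit of 6 libraries were added after seeing the data.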

Additional observations from a re-analysis of the deposited data

Results flagged for a closer look

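BCL2L1 was flagged because its change had opposite directions at the lowest and the highest dose: it was higher than in untreated cells at 0.15 µM and lower at 1 µM, and the direct comparison of 1 with 0.15 µM gave a log2 difference of -2.81 (SE 0.15, edgeR adjusted p = 9.94e-11). MCL1 was flagged for the reverse, lower at 0.15 µM and higher at 1 µM, with a log2 difference of 1.74 (SE 0.13, edgeR adjusted p = 5.52e-09). Both differences between 1 and 0.15 µM kept their direction and stayed past the threshold under all 17 alternatives. They ran from -2.88 to -2.69 for BCL2L1 and from 1.72 to 1.87 for MCL1. The decrease of MCL1 at 0.15 µM against untreated cells was less stable, and its call was lost in 9 of the 17.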

How the results depend on the processing

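BCL2L1 at 0.15, 0.5 and 1 µM, MCL1 at 0.5 and 1 µM, both genes from 0.25 to 0.5 and from 0.15 to 1 µM, and BOK from 0.15 to 1 µM kept their direction and stayed past the threshold under every alternative run for them. The other member calls were each lost under at least 1. Against untreated cells, values that changed sign were mostly near 0 and not called. With RLE factors, MCL1 at 0.25 µM was 0.0351, BAK1 at 0.5 µM 0.0704 and BOK at 1 µM 0.0247, and 1 member was called at 0.25 µM; DESeq2 gave 0.0351, 0.0712 and 0.0247 for these. The fit to the 6 libraries compared gave 0.0611, 0.0513 and 0.0310, and from 0.15 to 0.25 µM called 0 members and 1866 genes. Library totals gave, at 0.15 µM, BCL2 0.0574, BCL2L2 0.30, BAX 0.148 and BAK1 0.160, at 0.25 µM BCL2L2 0.292, MCL1 0.518 (called) and BAK1 0.0830, BAK1 0.337 and BOK 0.266 at 0.5 µM and BOK 0.318 at 1 µM. TMM factors computed on genes averaging 10 CPM or more gave, at 0.15 µM, BCL2L2 0.210, BAX 0.0649 and BAK1 0.0711, at 0.25 µM BCL2L2 0.181, MCL1 0.420 (called) and BAK1 0.00137, at 0.5 µM BAK1 0.398 and BOK 0.323, and at 1 µM BAX 0.000672 and BOK 0.357. A minimum of 10 counts in every library gave BCL2L2 0.118 at 0.15 µM and 0.0301 at 0.25 µM, MCL1 0.277 (called) at 0.25 µM, BAK1 0.279 and BOK 0.203 at 0.5 µM and BOK 0.241 at 1 µM. It left fewer genes to test, and 7517, 8851, 9784 and 9690 were called at the rising doses. Under each of these 3 settings 2 members were called at 0.5 µM. Of all genes, 15810 were called there with library totals, 16025 with those TMM factors and 9784 with the minimum of 10 counts. The share of all genes called with RLE factors is not given here, so its member count is not a result about the members. The cause of these differences was not tested.

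Without replicate 3 at 0.25 and 0.5 µM together, MCL1 at 0.25 µM was 0.0180, BAK1 and BOK at 0.5 µM 0.242 and 0.148, BOK at 1 µM 0.0128 and BAK1 from 0.15 to 0.25 µM 0.0572, where 4 members were called. From 0.5 to 1 µM, BCL2L1 was -0.0394, BCL2L2 0.311, MCL1 0.0332, BAK1 -0.106 and BOK -0.136. With the GC covariate, BCL2L2 at 0.15 µM was 0.483, MCL1 and BOK at 0.25 µM 0.0400 and -0.159, BAK1 at 1 µM -0.874 (called), and BAX and BAK1 from 0.15 to 0.25 µM 0.0789 and 0.184. From 0.5 to 1 µM, it gave BCL2L1 -0.0193, BCL2L2 0.119, MCL1 0.0201, BAK1 -0.100 and BOK -0.112. It called 5 members at 1 µM, 1 from 0.15 to 0.25 µM and 4 from 0.25 to 0.5 µM. With the replicate block as well, these values were 0.341, 0.0329, -0.160, -0.805 (called), 0.0935, 0.148, -0.0267, 0.108, 0.0178, -0.0954 and -0.120, and 5, 0 and 4 members were called. The replicate block alone changed no count of members called in the fit of 15 libraries (2 higher and 1 lower at 0.15 µM), and with the 6 libraries from 0.25 to 0.5 µM called 4. The shares of all genes called by the fits in this paragraph are not given here. Their member counts are therefore not results about the members.

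With each library left out in turn, 0 to 1 members were called at 0.25 µM, where 13654 to 14369 of all genes were called. At 0.5 µM, 3 to 5 members were called (3 without replicate 1 of that dose), with 15025 to 15704 of all genes. From 0.15 to 0.25 µM, 0 to 2 members were called, with 1704 to 2484 of all genes. The value of BAK1 at 0.5 µM ran from -0.292 to 0.196 and at 1 µM from -0.158 to 0.208, MCL1 at 0.25 µM from -0.0669 to 0.0367, and BOK at 0.5 µM from -0.228 to 0.107 and at 1 µM from -0.275 to 0.134. BAK1 from 0.15 to 0.25 µM ran from -0.428 to 0.0552, BAX from 0.15 to 1 µM from -0.430 to 0.139, and from 0.25 to 0.5 µM BCL2 from -0.274 to 0.00928 and BAX from -0.311 to 0.110. From 0.5 to 1 µM the ranges were -0.0445 to 0.163 for BCL2L1, -0.248 to 0.304 for BCL2L2, -0.0558 to 0.0281 for MCL1, -0.150 to 0.376 for BAK1 and -0.189 to 0.221 for BOK.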
